A study of Rattus norvegicus with 6 samples.

Results

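Nitric oxide synthases and the genes that supply or compete for their substrate were examined in primary cultures of cardiac fibroblasts, as 6 of the 4736 genes that the array names. They were read by 19 of its 8740 probe sets. The genes are Nos2, Nos3, Gch1, Ass1, Ddah1 and Odc1, and each probe set that the platform annotation assigns to exactly 1 of them was taken. The cells came from the ventricles of Sprague-Dawley rats aged 1 to 2 days (1 PTX sample gives the strain only as SD). Water was given to 3 cultures as the control and pertussis toxin (PTX) to 3 others, for 24 h in both cases, with 1 Affymetrix array of a single colour per culture. The toxin attaches ADP-ribose to the alpha subunits of Gi and Go proteins, which then no longer respond to their receptors. No label states its dose. The question was whether the low signal of the inducible synthase with PTX goes with its cofactor and substrate supply genes. The genes were chosen by that low Nos2 signal in the same contrast, so the Nos2 values are given as a description without a test. The labels do not tell whether the cultures of a group were isolated separately, so each p-value covers only the variation among these cultures, part of which may be technical.

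Nitric oxide synthases make nitric oxide and citrulline from arginine, and need tetrahydrobiopterin as a cofactor. Nos2 encodes the inducible enzyme, which is switched on at the level of transcription by cytokines and bacterial products, in cardiac fibroblasts among other cells. Nos3 encodes the constitutive enzyme of endothelial cells. Gch1 encodes GTP cyclohydrolase, the rate-limiting enzyme of tetrahydrobiopterin synthesis, and Ass1 encodes argininosuccinate synthase, which recycles citrulline towards arginine. Ddah1 breaks down asymmetric dimethylarginine, an endogenous inhibitor of the synthases, and Odc1 encodes ornithine decarboxylase, which makes the first polyamine from ornithine.

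The low inducible synthase rested on 1 of 4 Nos2 probe sets, and whether the cofactor and substrate genes differ from Nos2 in their change was not tested. On the brightest Nos2 probe set the PTX arrays lay 2.30-fold below the controls, on the scale of signal + 16. The only Gch1 probe set above the filter on low signals differed by a log2 change of -0.06, and the single Ass1 probe set lay below that filter. Ddah1 differed by at most 0.12 on the log2 scale on either probe set, and Odc1 was lower on both, by 0.25 and 0.41, without passing the test. Changes are given as PTX minus control of log2(signal + 16), a scale that understates the change of dim probe sets. Probe sets were tested where their mean over the 6 arrays was at or above the 40th percentile, which corresponds to a signal of 33.3. That left 9 of the 19 probe sets, of 5 of the 6 genes: 2 each of Nos2, Nos3, Ddah1 and Odc1, and 1 of Gch1.

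Promoter windows are shown for Gch1, the cofactor gene the question turns on, and for Odc1, the gene with a tested probe set besides Nos2 whose groups did not overlap. The RefSeq promoter table (build GRCr8) matched 5 of the 6 genes, Nos2 being the exception. Each run is the 250 bases before the transcription start, 5′ to 3′ on the gene's strand, at chr15:22917413-22917662 (minus strand) for Gch1 and chr6:46058415-46058664 (plus strand) for Odc1. Capitals mark TGACG, the core of the cAMP response element, read on either strand (CGTCA on the other). It was searched because Gi proteins, the substrates of PTX, restrain adenylyl cyclase.
Gch1: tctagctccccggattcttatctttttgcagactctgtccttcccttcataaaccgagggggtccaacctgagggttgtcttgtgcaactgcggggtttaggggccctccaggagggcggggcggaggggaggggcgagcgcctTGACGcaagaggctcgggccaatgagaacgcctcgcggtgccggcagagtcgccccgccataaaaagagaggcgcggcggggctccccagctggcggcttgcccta
Odc1: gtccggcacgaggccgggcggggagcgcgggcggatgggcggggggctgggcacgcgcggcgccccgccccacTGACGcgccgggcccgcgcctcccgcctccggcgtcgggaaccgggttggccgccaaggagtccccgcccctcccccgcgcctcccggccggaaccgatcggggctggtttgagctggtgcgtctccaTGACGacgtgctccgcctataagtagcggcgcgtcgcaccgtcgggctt
Gch1 holds the motif once, its first base 106 bases before the start, and Odc1 holds it 177 and 49 bases before the start. The windows of Nos3, Ass1 and Ddah1 hold no such letters. Of all 33469 windows of this length, 18.2% hold the motif, so a match is a description of the sequence and not a bound site.

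**Figure D1:**
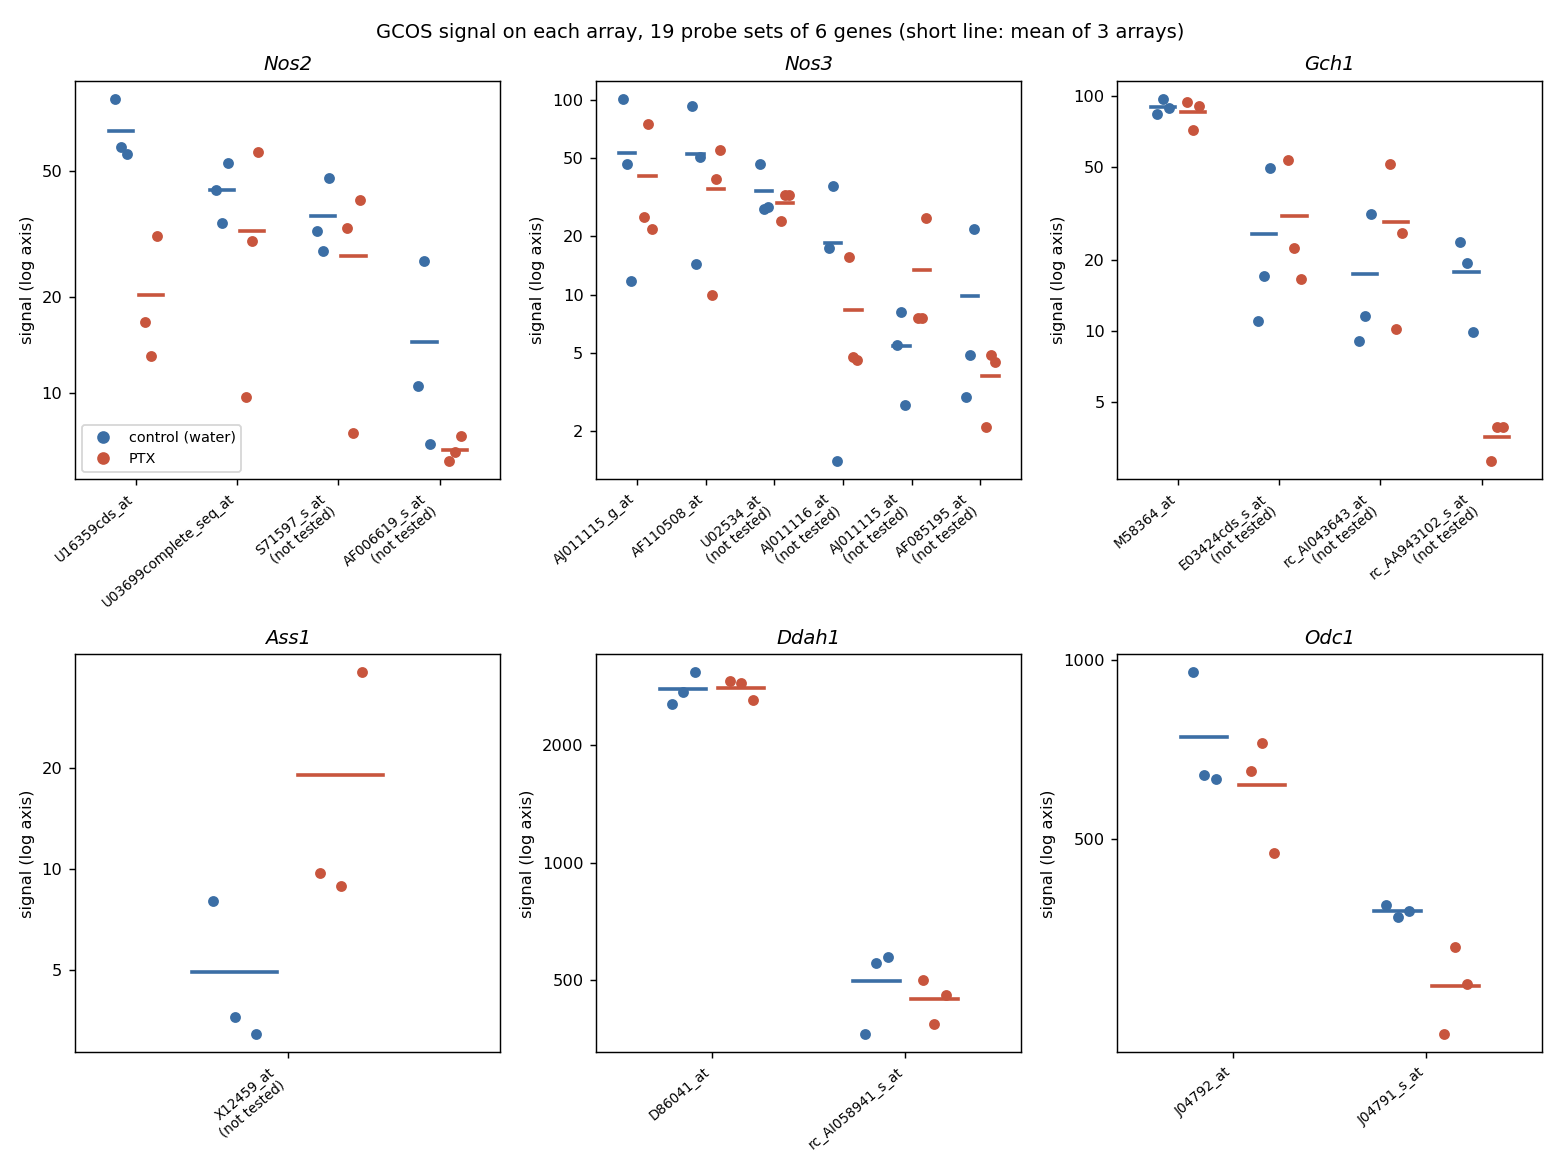
GCOS signal (log axis) of the 19 probe sets in the 3 control (blue) and 3 PTX (red) samples, 1 panel per gene, with a short line at each group's mean. The groups lie apart for U16359cds_at of Nos2, rc_AA943102_s_at of Gch1, X12459_at of Ass1 and J04791_s_at of Odc1, and overlap for the other 15 probe sets.

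Nos2 was read by 4 probe sets. U16359cds_at had signals of 83.9, 59.4 and 56.4 in control replicates 1 to 3 and of 16.7, 13.1 and 31.1 in PTX replicates 1 to 3. All 3 PTX samples lay below all 3 controls and below the signal of the filter, which this probe set passed through its controls, with means of 66.6 ± 15.1 and 20.3 ± 9.52 (SD, n = 3 each) and a log2 change of -1.20 ± 0.29 (limma's moderated SE). This is the value that led to the choice of these genes. U03699complete_seq_at had signals of 43.3, 34.3 and 53.0 in the controls and of 9.7, 30.0 and 57.1 with PTX, a log2 change of -0.42 ± 0.40 (SE). Here the groups overlapped, since PTX replicate 3 gave the highest signal of all and PTX replicate 1 the lowest.

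The remaining Nos2 probe sets lay below the filter, and their groups overlapped as well. S71597_s_at had 32.2, 28.0 and 47.5 in the controls and 33.1, 7.5 and 40.4 with PTX (log2 change -0.35), with PTX replicate 2 alone standing low. AF006619_s_at had 10.5, 26.0 and 6.9 in the controls and 6.1, 6.5 and 7.3 with PTX (log2 change -0.38), a difference carried mainly by control replicate 2. All 4 log2 changes of Nos2 were negative, with a mean of -0.59, against -1.20 for U16359cds_at alone. On the others single PTX samples moved the value: U03699complete_seq_at had -0.026 without PTX replicate 1, and S71597_s_at 0.038 without PTX replicate 2. Across the 6 arrays, the Pearson correlation of U16359cds_at with the other 3 probe sets was 0.57, 0.54 and 0.52, and among those 3 it was 0.01 to 0.31. These correlations rest on 6 arrays that include the group difference and are given as a description. Probe sets whose names end in _s_at hold probes that can match more than 1 transcript, and 3 further probe sets that the annotation shares between Nos2 and its pseudogene Nos2-ps1 are not counted here.

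Nos3, the endothelial synthase, was read by 6 probe sets, and none separated the groups. AJ011115_g_at had signals of 100.6, 46.8 and 11.7 in the controls and of 25.1, 75.3 and 21.8 with PTX. Its spread within each group was wider than the difference between them, with a log2 change of -0.17 (95% interval -1.47 to 1.13, limma adjusted p = 0.902). AF110508_at had 93.2, 14.4 and 50.6 in the controls and 10.0, 39.3 and 55.0 with PTX, with a log2 change of -0.37 (95% interval -1.63 to 0.88, limma adjusted p = 0.755). Both intervals are wide enough to hold a 2-fold difference in the lower direction, and that of AJ011115_g_at also holds a 2-fold difference in the higher direction. Without control replicate 1, which held the highest signal of both, the log2 changes were 0.32 and 0.05. The 4 Nos3 probe sets below the filter had log2 changes between -0.39 and 0.41, with overlapping groups and no signal above 46.6. The 6 probe sets did not vary together over the arrays, with pairwise correlations between -0.58 and 0.86.

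Markers of endothelial cells, in which Nos3 is known to be expressed, were low as well. Of the 11 listed, 4 were on the array and 2 passed the filter, and the summed signal of the 4 was 165.2 to 232.1 in the controls and 139.6 to 199.7 with PTX. Kdr, a receptor for vascular endothelial growth factor, had 104.7, 58.9 and 90.8 in the controls and 52.4, 99.6 and 95.7 with PTX (log2 change -0.04, limma adjusted p = 0.955). Flt1, another such receptor, had a log2 change of -0.20 (limma adjusted p = 0.740). Pecam1 and Vwf lay below the filter, with signals of 13.2 to 39.2, and no marker was at 0. In bulk samples fewer cells of a type and less RNA per cell cannot be told apart.

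Gch1, the cofactor gene, was read by 4 probe sets that went different ways. M58364_at, the only one above the filter, had signals of 83.6, 97.0 and 88.6 in the controls and of 94.6, 71.5 and 90.8 with PTX. The groups overlapped, with means of 89.7 ± 6.77 and 85.6 ± 12.4 (SD, n = 3 each) and a log2 change of -0.06 (95% interval -0.49 to 0.37, limma adjusted p = 0.892). Below the filter, rc_AA943102_s_at had 24.0, 19.4 and 9.9 in the controls and 2.8, 3.9 and 3.9 with PTX. These groups did not overlap (log2 change -0.77), at signals where no detection call was used. E03424cds_s_at had 11.0, 17.1 and 49.4 in the controls and 53.3, 22.5 and 16.7 with PTX (log2 change 0.19), and rc_AI043643_at had 9.1, 11.6 and 31.6 against 51.3, 10.2 and 26.1 (0.39). Both had overlapping groups, the highest PTX signal of each being in replicate 1. Over the 4 probe sets the mean log2 change of Gch1 was -0.06.

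Ass1, the citrulline recycling gene, had its only probe set, X12459_at, near the bottom of the signals. The controls had 8.0, 3.6 and 3.2 and the PTX samples 9.7, 8.9 and 38.7. The groups did not overlap and the log2 change was 0.65, the opposite direction to Nos2. PTX replicate 3 alone gave most of this, and without it the log2 change was 0.28. With its mean below the filter, Ass1 was not tested.

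Ddah1, which removes the inhibitory methylarginine, had bright signals in every sample. D86041_at had 2557.2, 2740.3 and 3076.4 in the controls and 2921.6, 2897.1 and 2608.2 with PTX, with means of 2791 ± 263 and 2809 ± 174 (SD, n = 3 each). Its log2 change of 0.01 had a 95% interval of -0.28 to 0.30 (limma adjusted p = 0.977), the narrowest of the tested probe sets given with an interval here. On rc_AI058941_s_at the controls had 362.8, 553.6 and 573.5 and the PTX samples 501.2, 385.3 and 458.9, with control replicate 1 the lowest of all. The log2 change was -0.12 (95% interval -0.60 to 0.35, limma adjusted p = 0.789), or -0.33 without control replicate 1.

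Odc1, the polyamine gene, was lower with PTX on both probe sets, by amounts that did not pass. J04791_s_at had 387.8, 370.6 and 379.5 in the controls, with a spread of only 8.60 (SD, n = 3), and 235.8, 330.3 and 286.5 with PTX. All PTX samples lay below all controls, with means of 379 and 284 and a log2 change of -0.41 (95% interval -0.77 to -0.04), an unadjusted p of 0.0326 and an adjusted p of 0.366 with limma over all probe sets. J04792_at had 951.8, 641.2 and 630.7 in the controls and 650.3, 723.9 and 475.2 with PTX. These groups overlapped, with a log2 change of -0.25 (95% interval -0.76 to 0.25, limma adjusted p = 0.607). Without control replicate 1, which was the highest, the second probe set had -0.06 and the first -0.39.

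**Figure D2:**
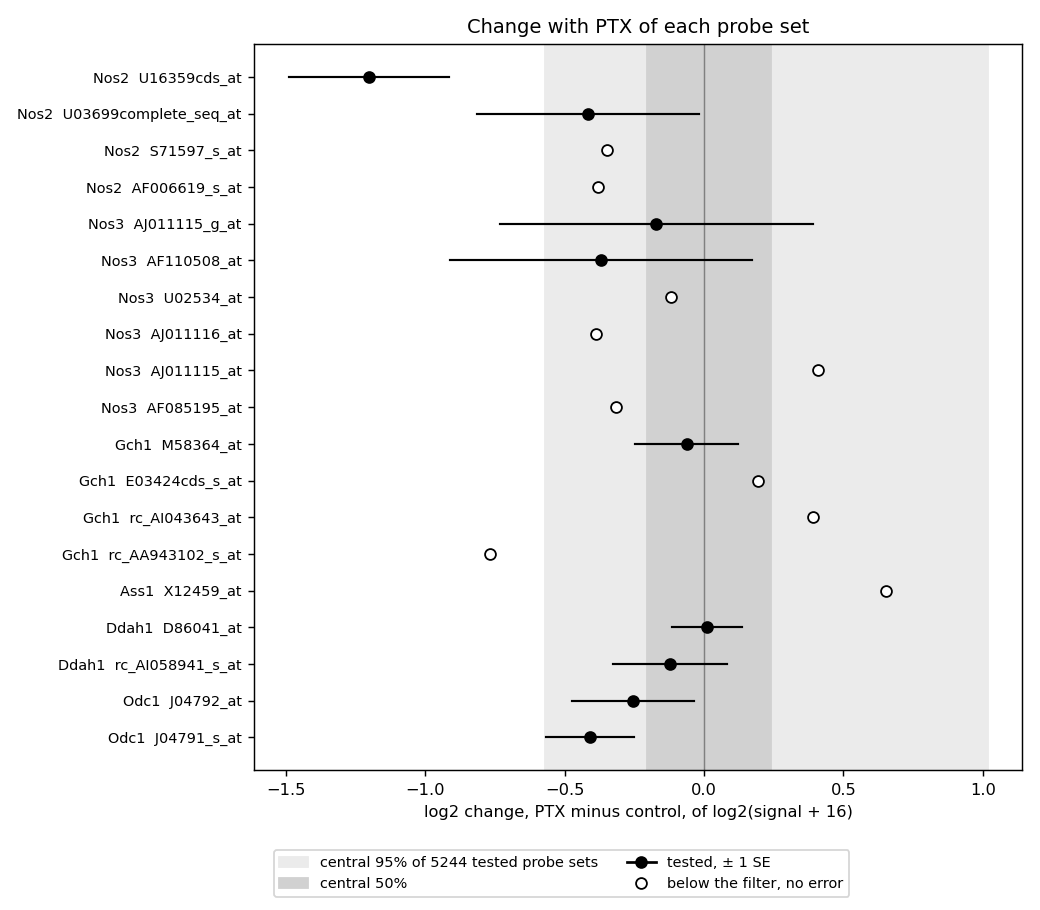
Log2 change (PTX minus control, of log2(signal + 16)) of the 19 probe sets; filled points are tested and carry ± 1 limma SE, open points lie below the filter on low signals. The grey bands hold the central 95% (-0.57 to 1.02) and 50% (-0.20 to 0.24) of the 5244 tested probe sets, and U16359cds_at of Nos2, at -1.20, is the tested point farthest to the left.

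None of the 7 tested probe sets of genes other than Nos2 passed an adjusted p of 0.05 with limma, against 0.0763% of the 5244 probe sets tested (4, all of them higher with PTX). At an unadjusted p under 0.05, 1 of these 7 was lower and 0 were higher, against 4.61% and 7.97% of all tested. For 4 of the 19 probe sets the groups did not overlap, against 18% of all 8740. Of these, 3 were lower and 1 was higher, against 9.06% and 8.91%. Among the 9 tested, 2 were apart, both lower, against 22.6% of all tested in either direction and 10.6% lower. Since this contrast led to the choice of the genes, nothing is read from these shares. The median log2 change of the 9, which include the Nos2 value behind the choice, was -0.25, and that of the 7 without Nos2 was -0.17. It was -0.02 for all tested probe sets and -0.10 for the 2960 whose names do not begin with rc_, the class of all but 1 of the 9. Nothing is read from these medians either. Without control replicate 1 the medians of the 9, of all tested and of that class were -0.10, -0.01 and -0.05. That sample stood apart, with correlations of 0.952 to 0.960 with the other 5 over all probe sets, against 0.978 to 0.985 among those 5.

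Other genes of the pathway were taken from 8 lists by role, and 0 of the 29 tested genes besides the members passed an adjusted p of 0.05 with limma. At an unadjusted p under 0.05, 3 were higher and 3 lower, against 7.97% and 4.61% of all tested probe sets. The median log2 change of the 29 was -0.0045, with 13 positive and 16 negative, beside -0.019 for all tested. The 3 lower genes were the arginine transporter gene Slc7a1, the transporter heavy chain gene Slc3a2 and Cav1, whose product binds and restrains the endothelial synthase. The 3 higher genes, Nfkbia, Il1b and Hif1a, belong to the list of factors known to act on Nos2 transcription. Each gene stands for its brightest probe set here.

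Genes of tetrahydrobiopterin synthesis and recycling gave 4 tested genes, Gch1 included, all with negative log2 changes and none past the test (median -0.21). Of all tested probe sets 52.9% were negative, and of those whose names do not begin with rc_, the class of all 4, 65.2% were. The median of that class was -0.10, and nothing is read from the count. On the brightest probe set of each gene, Spr, which catalyses the last step of the synthesis, had the largest difference. Its signals were 558.6, 414.3 and 473.0 in the controls and 415.5, 446.7 and 340.3 with PTX (log2 change -0.26, limma adjusted p = 0.518). Pts, the enzyme between Gch1 and Spr, had -0.24 and Qdpr, which regenerates the cofactor, had -0.18, or -0.35 on its dimmer tested probe set (limma adjusted p = 0.432), all with overlapping groups. Without control replicate 1 the median of these 4 was -0.13.

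Arginine uptake held the largest differences among the tested supply genes, each taken by its brightest probe set. Slc7a1, which encodes the cationic amino acid transporter CAT-1, had signals of 175.4, 243.2 and 313.1 in the controls and of 161.7, 144.1 and 141.3 with PTX on rc_AA957917_s_at. The groups did not overlap, with a log2 change of -0.62 (95% interval -1.12 to -0.13), an unadjusted p of 0.0201 and an adjusted p of 0.336 with limma. A second tested probe set, U70476_at, had 177.5, 128.8 and 174.2 in the controls and 116.3, 111.7 and 101.9 with PTX. It too lay apart, with a log2 change of -0.47 (limma adjusted p = 0.366). Without control replicate 1 rc_AA957917_s_at passed, with -0.83 and a limma adjusted p of 0.0320, while U70476_at had -0.40. In that setting 115 probe sets passed in place of 4. With any other array left out rc_AA957917_s_at had a limma adjusted p of 0.300 to 0.682. Another Slc7a1 probe set, L10152_s_at, lay below the filter, with a log2 change of -0.67 and overlapping groups. Slc3a2, the heavy chain shared by several amino acid transporters, had 1289 ± 257 and 801 ± 59.2 (SD, n = 3 each; log2 change -0.66, limma adjusted p = 0.231) on its brightest probe set, but 0.01 on another with overlapping groups. Asl, which completes the citrulline recycling begun by Ass1, had 264.8, 233.3 and 232.8 in the controls and 238.2, 248.9 and 254.2 with PTX. Its log2 change of 0.02 had a 95% interval of -0.30 to 0.34 (limma adjusted p = 0.955).

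Enzymes that use arginine or ornithine gave 4 tested genes, 3 positive and 1 negative, and none passed. Of all tested probe sets 47.1% were positive. Arg1, the arginase that splits arginine into urea and ornithine, had 133.5, 152.6 and 153.5 in the controls and 208.3, 173.5 and 190.7 with PTX. These groups did not overlap (log2 change 0.35, 95% interval -0.01 to 0.70, limma adjusted p = 0.409). Oat, which turns ornithine into a proline precursor, had -0.22 on its brightest probe set (limma adjusted p = 0.450) and 0.51 on another, which was -0.058 without control replicate 1. In the methylarginine list, Prmt3, a protein arginine methyltransferase, had 0.02.

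Among the 5 tested polyamine genes, Odc1 included, 4 were negative and 1 positive, where 52.9% of all tested probe sets were negative. Amd1, which provides the aminopropyl group of the longer polyamines, had 215.9, 162.1 and 191.7 in the controls and 150.6, 146.6 and 132.1 with PTX (log2 change -0.37, limma adjusted p = 0.410), with groups that did not overlap. Oaz2, an antizyme that directs ornithine decarboxylase to degradation, had a log2 change of 0.96, which was 0.16 without control replicate 1. In that sample Oaz2 had a signal of 1222, against 5923 to 8737 in the other 5. Of the nitric oxide targets, Gucy1b1, a subunit of soluble guanylyl cyclase, had -0.37 (limma adjusted p = 0.498) and Gucy1a1, its partner subunit, -0.17, both with overlapping groups.

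Among proteins that act on the synthases, Cav1 had signals of 353.5, 235.4 and 265.0 in the controls and of 190.3, 163.6 and 173.1 with PTX. All PTX samples were below all controls, with a log2 change of -0.63 (95% interval -1.05 to -0.21, limma adjusted p = 0.277). Calm2, one of the calmodulin genes, had 0.33, or 0.08 without control replicate 1. Nos1, the neuronal synthase, lay below the filter on all 3 of its probe sets.

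**Figure D3:**
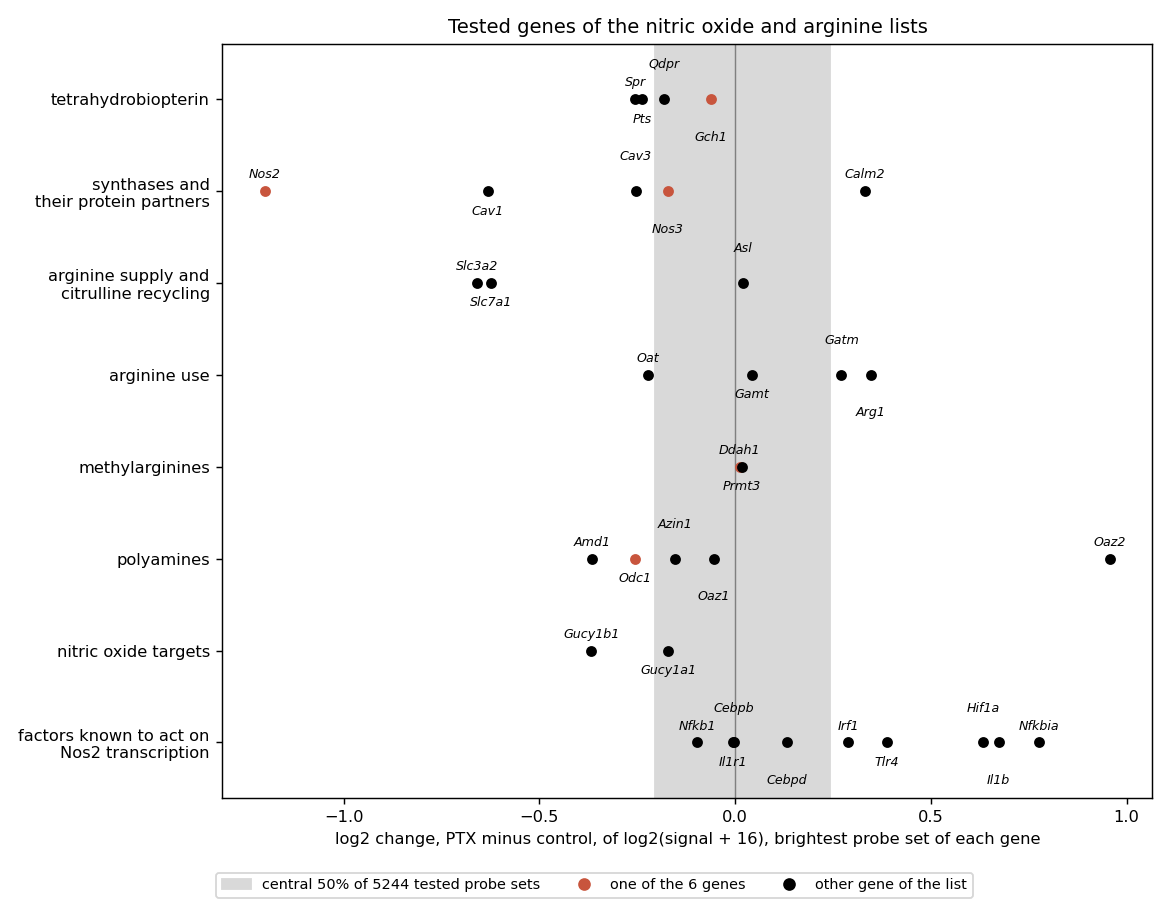
Log2 change (PTX minus control) of the tested genes of 8 lists, each gene by its brightest probe set, with members in red and other genes in black. The grey band holds the central 50% of all tested probe sets, -0.20 to 0.24; Nos2, Slc3a2, Cav1 and Slc7a1 lie farthest to the left and Oaz2 and Nfkbia farthest to the right.

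Factors known to act on Nos2 transcription had positive log2 changes in 6 of 9 tested genes, with a median of 0.29, and 0 passed an adjusted p of 0.05 (without adjustment, 3 were higher and 0 lower at p under 0.05). Over all tested probe sets 47.1% were positive, and 7.97% were higher and 4.61% lower at that unadjusted threshold. Of those whose names do not begin with rc_, the class of all 9, 34.8% were positive. Nothing is read from these shares. Nfkbia encodes a protein that holds NF-kB in the cytoplasm and is among its targets. It had 268.6, 246.5 and 244.4 in the controls and 477.0, 461.0 and 399.8 with PTX (log2 change 0.78, limma adjusted p = 0.137). Its limma adjusted p was 0.0140 without control replicate 1, where 115 probe sets passed in place of 4. With any other array left out it was 0.0930 to 0.656. Il1b, a cytokine that induces Nos2, had 63.6, 42.8 and 43.4 in the controls and 73.5, 95.6 and 96.9 with PTX, a log2 change of 0.67 (limma adjusted p = 0.324). The groups of Nfkbia and of Il1b did not overlap on these probe sets. A second tested Il1b probe set, whose controls lay below the signal of the filter, had 1.55 with groups apart. Another, below the filter, had 0.21 with overlapping groups. Hif1a, a transcription factor of the hypoxic response, had 0.63, or 0.34 without control replicate 1. Nfkb1, a subunit of NF-kB, had -0.10 (limma adjusted p = 0.727), and Tnf and Ifng, both inducers of Nos2, lay below the filter.

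Markers of macrophages, which can express Nos2, had a higher summed signal with PTX. Of 12 listed markers, 9 were on the array and 5 passed the filter, and the summed signal of the 9 was 3496 to 3551 in the controls and 4236 to 5397 with PTX. Most of the sum was Lyz2, a lysozyme gene, with 2139, 2517 and 2486 in the controls and 3276, 4150 and 2908 with PTX. Fcgr2b, an Fc receptor gene, had 0.88 (limma adjusted p = 0.0876) and Cd14, a receptor for bacterial lipopolysaccharide, 0.15. The complement genes C1qb and C1qc had -0.39 and -0.24. Csf1r, Ptprc, Cd74 and Itgam lay below the filter, Cd74 with groups apart and lower with PTX (-0.90), and no marker was at 0. Of 11 fibroblast markers all passed the filter, with Col3a1 at 16435 to 22449 over the 6 samples. Their log2 changes were positive for 6 and negative for 5, and 0 passed an adjusted p of 0.05 with limma. Thy1 had -0.97 (limma adjusted p = 0.0743), whereas Lum had 1.10, Postn 1.07, Fn1 0.43 and Pdgfra 0.36, these 5 being the ones at an unadjusted p under 0.05. Of 10 cardiomyocyte markers 8 passed the filter, with Myl2 at 37956 to 69880, so the cultures also held cardiomyocyte transcripts. Log2 changes were negative for all 8, with a median of -0.28, or -0.12 without control replicate 1, and 0 passed. Of all tested probe sets 52.9% were negative. Myh7 had -0.39 (limma adjusted p = 0.375). The summed signal of the 10 was 249814 to 329250 in the controls and 215074 to 244418 with PTX. That of the 11 fibroblast markers was 84155 to 100316 in the controls and 88110 to 92279 with PTX. Among smooth muscle markers Acta2 had 0.59, or 0.03 without control replicate 1, and Tagln -0.35. Whether a shift in the makeup of the cultures has a part in the Nos2 values was not tested.

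The probe sets of other genes most like U16359cds_at over the 6 arrays were those of Vps33a (endosome fusion), Pold1 (DNA polymerase delta), Akap1 (an anchor of protein kinase A), Ddr2 (a collagen receptor) and Mtr (methionine synthase), with Pearson correlations of 0.995, 0.988, 0.986, 0.980 and 0.978. They were ranked among all tested probe sets with 1 gene symbol, on log2(signal + 16), and their groups did not overlap, so the likeness includes the group difference. The brighter probe set of Ddr2, which is not among these, had a log2 change of -0.20 with overlapping groups. Vps33a had signals of 102.6, 66.8 and 65.9 in the controls and of 16.3, 16.3 and 31.6 with PTX, nearly the same profile as that Nos2 probe set. Its PTX signals too lay below the signal of the filter, which it passed through its controls.

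**Figure D4:**
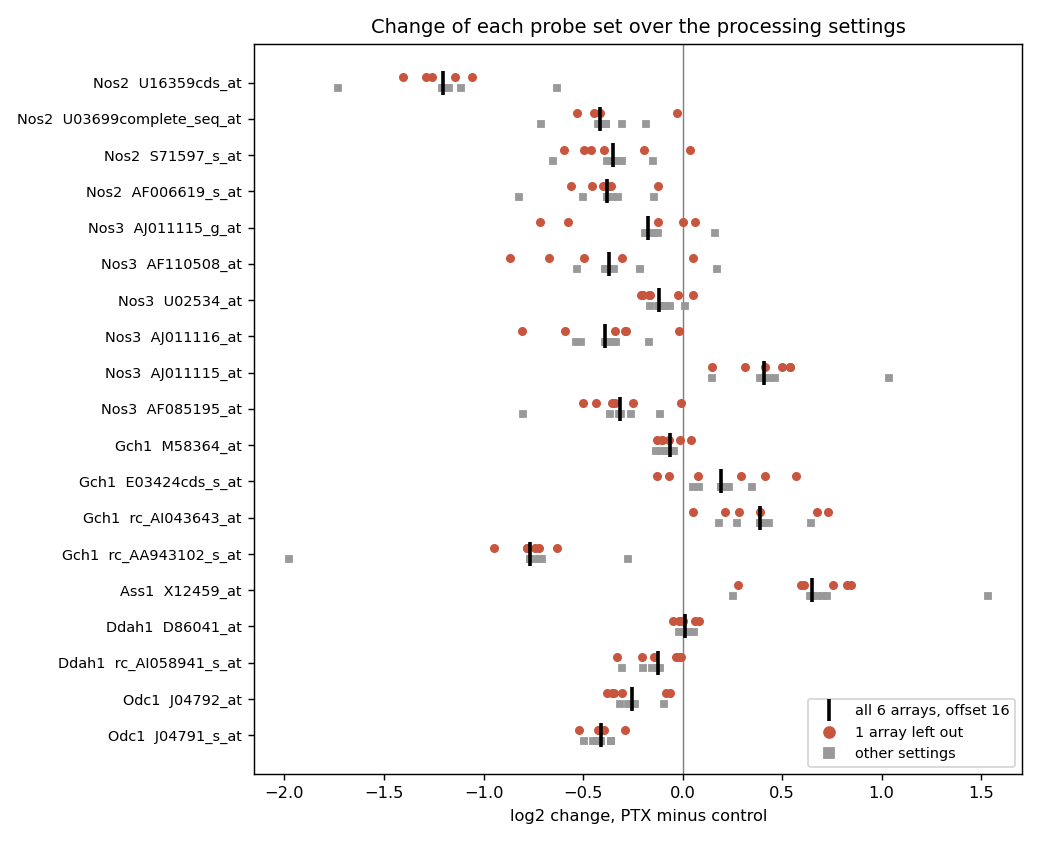
Log2 change (PTX minus control) of the 19 probe sets with all 6 arrays (black line), with 1 array left out (red) and under the other settings tried (grey). U16359cds_at of Nos2 stays between -1.73 and -0.63, and the Nos3 probe sets AJ011115_g_at and AF110508_at fall on both sides of 0.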

How the data were processed

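Per the series' design text and the submitters' processing notes, total RNA was labelled as biotin-cRNA, hybridised to 1-colour Affymetrix arrays and analysed with GCOS, the Affymetrix software. No label gives its version, its scaling target or detection calls. What the authors deposited are linear signal intensities in 1 column per array. Trimmed means (2% at each end) lay between 493 and 495, and the intensities were used without further scaling. The number of arrays limits the precision.

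Gene names come from the annotation of the platform (7006 have 1 symbol, 308 several, 1426 none), and 6985 symbols were updated through the Entrez identifier with RefSeq (GRCr8). Signals were analysed as log2(signal + 16). Of 8740 probe sets, 5244 passed the 40th percentile of the mean log2 value. They were tested in one fit with limma 3.58.1 in R 4.3.3 (lmFit, eBayes with an intensity trend), two-sided, Benjamini-Hochberg adjusted, at a threshold of 0.05. Probe sets below the filter have values only. In 20 simulations of this comparison on 5244 probe sets, 200 were given changes of 1.5-, 2- or 4-fold, the last the most frequent. Recovered were 16.3% of the 1.5-fold, 62.1% of the 2-fold and 98% of the 4-fold changes, and 5.68% of calls were false. The simulated errors were independent and normal, without an array that stands apart as control replicate 1 does. These shares are averages over bright and dim probe sets. In the data only 4 probe sets passed, so an adjusted p of 0.05 asked for a smaller unadjusted p there than in the simulations. The shares may therefore overstate the recovery in these data.

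Members and lists were chosen with earlier results of these data known. All member probe sets are given, and from each list the largest rise and fall and genes at an unadjusted p under 0.05. From the markers, those bearing on Nos2 and Nos3 are given with the brightest fibroblast and cardiomyocyte ones. Further examples were picked with their values in view. Replicate numbers are shared between the groups, but same-numbered samples did not deviate together (correlations of -0.09, -0.11 and -0.01 over the tested probe sets). The alternatives were offsets of 1 and 64, no filter, a 60th percentile filter, 3 normalizations, a replicate block, eBayes without a trend or with robust variances, array quality weights, each array left out, and the mean of the 4 Nos2 probe sets, the last added after seeing the data.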

Additional observations from a re-analysis of the deposited data

How the results depend on the processing

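Member probe sets of genes other than Nos2 past an adjusted p of 0.05 numbered 0 under all 17 alternatives. The log2 change of the brightest Nos2 probe set was negative under all that gave it, at -1.73 with an offset of 1, -0.63 with an offset of 64 and -0.59 as the mean of the 4 Nos2 probe sets. With 1 array left out it was -1.41 to -1.06; without control replicate 1 it lay below the filter and was read without one.

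Small changes turned sign. With array quality weights AJ011115_g_at of Nos3 had 0.16, AF110508_at of Nos3 0.17 and D86041_at of Ddah1 -0.016. With 1 array left out these ranged from -0.71 to 0.060, from -0.87 to 0.051 and from -0.049 to 0.083, and M58364_at of Gch1 ranged from -0.13 to 0.042. Without control replicate 1 both Nos3 probe sets lay below the filter and are not in these ranges; read without a filter they had 0.32 and 0.055. Of the dim Nos2 probe sets, S71597_s_at had 0.038 without PTX replicate 2.

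Among all probe sets, 4 passed as reported, 81 with array quality weights, 9 with robust variances, 7 with an offset of 64, 2 with an offset of 1 or quantile normalization, 0 without a trend and 0 to 115 with 1 array left out (115 without control replicate 1, 30 without control replicate 3). Pathway genes besides the members passed 0 times as reported, 1 with array quality weights (Nfkbia) and 0 to 2 with 1 array left out (Slc7a1 and Nfkbia, without control replicate 1). With the replicate number as a block (replicate block), 0 probe sets passed. Same-numbered samples did not deviate together, which does not settle whether they are paired. The cause of these differences was not tested. Signals near the low end limit Nos2, Nos3, Ass1 and 3 of 4 Gch1 probe sets, since detection calls were not used.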

Other observations

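The 3 probe sets that the annotation shares between Nos2 and the pseudogene Nos2-ps1, which cannot be assigned to either, had dim signals and overlapping groups. D83661_s_at had 39.1, 29.6 and 20.8 in the controls and 16.1, 22.4 and 35.2 with PTX, a log2 change of -0.18. D44591_s_at and U48829_s_at had no signal above 12.4 in any sample, with log2 changes of -0.13 and -0.17. Without control replicate 1 the log2 changes of D83661_s_at, D44591_s_at and U48829_s_at were -0.04, 0.004 and -0.22. None of the 3 passed the filter on low signals.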
